A study of Mus musculus with 11 samples.

Results

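Resting mouse RAW cells with a hairpin against GIV were compared with resting RAW cells that carry a control hairpin. The samples were chosen by their labels alone: 6 of the 11 labelled samples were taken without LPS, 3 of them depleted of GIV (sets 1, 2 and 3) and 3 of them controls (sets 1, 2 and 3). The difference was fitted on 5 of these libraries, because control replicate 2 had an RNA composition unlike that of any other library. Its values are given beside the others.

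RAW is a macrophage-type cell line, and total RNA was sequenced after ribosomal depletion in stranded libraries with paired reads of 100 bases. Both groups used here carry a short hairpin RNA, labelled shC in the controls and shGIV in the depleted cells, and neither received LPS (0 h). The rest of the series was given LPS, the bacterial cell wall component sensed by Toll-like receptor 4, at 100 ng/ml for 5 h, and 10 of the 11 samples have a column of values. The labels state neither the hairpin sequences, nor whether each line is a clone or a pool, nor whether the replicates were separate cultures. The p-values therefore measure only the spread between these samples, which may be technical.

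GIV, also called Girdin, is the product of Ccdc88a, a large actin-binding scaffold that modulates inhibitory heterotrimeric G proteins downstream of several receptor types. Macrophages and osteoclasts come from shared myeloid precursors. In osteoclast formation the ligand RANKL induces the transcription factor NFATc1, which raises genes for cell fusion, acid secretion and bone matrix digestion. RAW cells are widely used for both fates.

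Levels are TPM (transcript abundances scaled to the same total in each library), so read depth cannot be recovered from them. Log2 differences are of TPM + 1, depleted minus control, and are compressed for transcripts near 0. In the 5 fitted libraries protein-coding genes took 75.2% to 79.3% of the TPM, against 7.81% in control replicate 2. The annotated microRNA gene Mir6236 took 57.8% of control replicate 2 and 4.43% to 8.78% of the others. Mitochondrial genes took 5.23% to 8.32% of the fitted libraries. The macrophage identity of the lines could be checked directly: 12 of 14 macrophage markers passed the filter on low levels, and the summed level of the list was 21197 to 23302 TPM. Single markers were very uneven within that sum. In the fitted controls Cd14 was at 1241 and 1352 TPM, Adgre1 at 60.5 and 73.1, and Fcgr1 at 13.6 and 11.7. The markers of other cells were near 0. Their summed levels were at most 0.852 TPM for fibroblasts, 0.0455 for epithelium, 0.821 for T and NK cells, 0.969 for B cells, 0.0597 for mast cells and basophils and 1.85 for dendritic cells, and 4.24 for neutrophils and 5.85 for endothelium. Of these lists, 2 of 8 fibroblast, 6 of 8 epithelial, 3 of 8 T and NK cell, 1 of 7 B cell, 4 of 6 mast cell, 2 of 8 dendritic, 2 of 8 neutrophil and 1 of 6 endothelial markers were listed at 0 in all 5 libraries.

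The targeted transcript was only partly lower. Ccdc88a (chr11:29373658-29510808, plus strand, GRCm38) measured 10.0 and 7.69 TPM in the 2 fitted controls. The 3 depleted libraries had 6.93, 5.31 and 5.58 TPM. All 3 depleted libraries lay below both controls, with a depleted mean that was 67.2% of the control mean. In control replicate 2 it was at 1.18 TPM. The log2 difference was -0.50 ± 0.15 (SE), which did not pass the test (limma adjusted p = 0.232). An exact two-sided permutation test gave p = 0.1, the smallest value that the 10 assignments of 5 libraries allow. Its relatives Ccdc88b and Ccdc88c differed by 0.18 and 0.10, and 0 of 11 tested genes of the GIV family and Gi modulators were called.

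Depletion at rest called few genes. Of 13711 genes tested, 167 passed an adjusted p of 0.05 in limma (1.22%), 67 of them higher in depleted cells (0.489%) and 100 lower (0.729%), and 1678 had an unadjusted p under 0.05. Protein-coding genes made up 57 of the 67 and 88 of the 100. Most changes were modest: 14 coding genes rose and 23 fell by at least 1 on the log2 scale, and the median change among the called genes was 0.79 up and -0.71 down, against 0.02 over all genes tested. Of all genes tested, 28.3% had groups that did not overlap. The counts depended on single libraries. They were 30 higher and 49 lower without control replicate 1, 31 and 27 without control replicate 3, 46 and 59 without depleted replicate 1, 36 and 40 without depleted replicate 2, and 35 and 49 without depleted replicate 3. Leaving out depleted LPS replicate 1, 2 or 3 gave 43 and 60, 52 and 66, and 45 and 61. The LPS libraries enter only through the shared estimate of the spread and the filter on low levels. Whichever of these 8 libraries was left out, 17 of the higher and 18 of the lower genes kept their call. Sets 1 and 3 are in both groups, and with the set number as a block in the fit the counts were 23 and 35, of which 20 and 31 were among these calls. Calls of named genes that were lost with this block are given below with their adjusted p. Unless the block is named, SEs and adjusted p-values are from the fit without it. Among the kept calls, the limma adjusted p with the block was 0.0379 for Nfatc1 and Ccl2 and 0.0283 for Msr1.

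**Figure D1:**
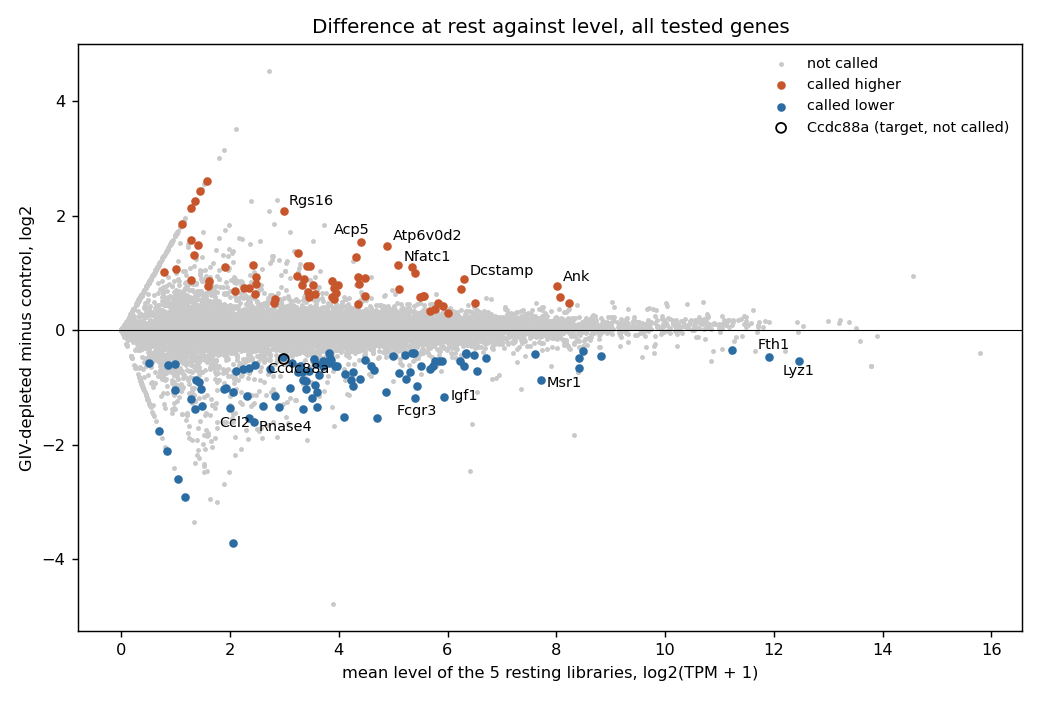
Each point is one of 13711 tested genes, with its mean level in the 5 resting libraries (log2(TPM + 1), horizontal axis) and its log2 difference between depleted and control cells (vertical axis). Orange and blue points are the 67 genes called higher and the 100 called lower, and the circle marks Ccdc88a at -0.50, which was not called. Called points at low levels lie farther from 0 than those at high levels.

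The spread differed between the groups. Over 8717 genes, the median absolute log2 difference between the 2 fitted control libraries was 0.173, while pairs of depleted libraries differed by 0.067 to 0.098. Control replicate 3 lay 0.109 to 0.124 from the depleted libraries, closer than to control replicate 1, which lay 0.145 to 0.175 from them.

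Genes of osteoclast differentiation were the list with the most calls upward. Of 20 genes listed, 17 could be tested, and 6 rose while 0 fell, with a median of 0.10 over the tested members against 0.02 over all genes. In bulk RNA, fewer cells of a type and less RNA per cell cannot be told apart, here and for every gene below. The list was chosen with earlier results of these data known, so the count is not independent evidence of its direction. The same holds for each list below. Over all genes tested, 0.489% were called higher and 0.729% lower, which are the shares to set beside each list's count.

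The transcription factor of the program was among the genes that rose. Nfatc1, the master regulator of osteoclast differentiation, measured 18.4 and 22.3 TPM in the fitted controls, against 46.5, 44.6 and 45.8 TPM with depletion. The depleted libraries differed by less than 2 TPM and all lay above both controls. Its level rose by 1.13 ± 0.10 on the log2 scale (limma adjusted p = 0.00402). Rcan1, a calcineurin inhibitor that NFAT proteins are known to induce, rose by 0.72, from 22.1 and 27.4 TPM to 44.1, 39.5 and 40.3 TPM. Its call was lost without control replicate 1 or any of the depleted resting replicates. The AP-1 genes Fosl2 and Jdp2 rose by 0.55 and 0.46, and their calls were lost in at least 7 of the 8 leave-outs. Jdp2 encodes a Jun dimerization protein with a known part in osteoclast formation. Upstream of them, the RANK receptor gene Tnfrsf11a differed by -0.01 and the adaptor Traf6 by 0.10, and neither was called. Nfatc1 kept its call with the set block, and Rcan1, Fosl2 and Jdp2 lost theirs (limma adjusted p = 0.108, 0.135 and 0.147).

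The acid secretion and matrix digestion genes came next. Acp5 (chr9:22126727-22135711, minus strand), the tartrate-resistant acid phosphatase used as the osteoclast stain, was at 9.89 and 10.4 TPM in the controls and at 31.9, 34.3 and 28.4 TPM in the depleted cells. That is a 3.11-fold difference of the means, with no overlap and a log2 rise of 1.54 ± 0.10 (limma adjusted p = 0.00246). Atp6v0d2 (chr4:19876841-19922605, minus strand), a subunit of the vacuolar proton pump that is enriched in osteoclasts, was at 14.5 and 15.6 TPM against 43.4, 42.4 and 44.9 TPM. In the fit without the set block it had the lowest adjusted p of all genes (0.000596, limma) and rose by 1.48 ± 0.07. With the block its limma adjusted p was 0.00872, the same as for Acp5, Rgs16 and Igf1. The other 18 tested subunits of the pump were not called, and Atp6v0d1, the broadly expressed counterpart of Atp6v0d2, differed by -0.24. Car2, carbonic anhydrase 2, which supplies protons, rose by 0.80, from 14.1 and 13.5 TPM to 27.97, 22.9 and 23.7 TPM. Mmp9, a gelatinase, rose by 0.89 from a very low level, 0.664 and 0.686 TPM, to 2.11, 2.09 and 2.09 TPM. Both controls were below the filter's log2 level of 1, so Mmp9 needed depleted libraries to pass it. Ctsk, the main collagen-degrading protease of osteoclasts, differed by 0.10 and was not called.

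Cell fusion was represented by Dcstamp (chr15:39745930-39760938, plus strand), a membrane protein required for osteoclast fusion. Its level was 56.6 and 51.0 TPM in the controls and 99.1, 102 and 101 TPM in the depleted cells, a rise of 0.89 ± 0.08 (limma adjusted p = 0.00396). Ocstamp, its partner in fusion, differed by 0.42 and was not called. Of the remaining tested members, Src differed by 0.43 and Itgav, the integrin alpha V subunit, by -0.33, neither of them called. Calcr, Oscar and Itgb3 did not pass the filter on low levels. Nfatc1, Acp5, Atp6v0d2, Dcstamp and Mmp9 kept their call with each of the 8 libraries left out, and Car2 lost it without control replicate 3. Of the genes outside the list, Slc9b2, a sodium-proton exchanger also studied in osteoclasts, rose by 1.32 from 0.352 and 0.584 TPM to 2.88, 3.16 and 2.02 TPM. Like Mmp9, Slc9b2 needed depleted libraries to pass the filter. Its call was lost without either control, without depleted replicates 1 or 2, and without depleted LPS replicate 1. All 6 called osteoclast genes kept their call with the set block, and Slc9b2 lost it (limma adjusted p = 0.133).

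The largest rise of a gene with a level above the naming limit was that of Rgs16 (chr1:153740349-153745468, plus strand), which encodes a GTPase-activating protein that shortens signalling by Gi and Gq subunits. Its level was 2.54 and 2.13 TPM in the controls and 15.7, 12.002 and 11.9 TPM in the depleted cells. All 3 depleted libraries were far above both controls. The means differed 5.66-fold, and the log2 rise was 2.08 ± 0.13 (limma adjusted p = 0.00211). It was the only called gene among 11 tested RGS proteins, arrestins and receptor kinases. Rgs10 differed by 0.37, Rgs3 by 0.51, Rgs1 by -0.16 and Rgs2 by -0.04, none of them called. Of 16 heterotrimeric G protein subunits tested, 0 were called, and Gnai2 and Gnai3, the abundant inhibitory subunits, differed by -0.01 and -0.13.

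Several of the other large rises were metabolic or transport genes. Npl, N-acetylneuraminate pyruvate lyase, which degrades sialic acid, was at 4.03 and 4.81 TPM against 14.1, 12.6 and 11.9 TPM and rose by 1.36. Kbtbd11, a Kelch and BTB domain protein, rose by 1.28, from 11.0 and 10.5 TPM to 27.96, 27.6 and 27.1 TPM. Bdh1 and Bdh2, both named as hydroxybutyrate dehydrogenases, rose by 1.13 and 0.93. The levels of Bdh1 were 5.68 and 6.21 TPM in the controls and 14.0, 14.2 and 14.5 TPM in the depleted cells. Slc16a12, a monocarboxylate transporter family member, rose by 0.96. Sgsm1, a Rab GTPase-activating protein, rose by 1.11, Angptl2, a secreted angiopoietin-like protein, by 0.91, and Emp2, a tetraspan membrane protein, by 0.91. The noncoding genes Gm48941 and 2210408F21Rik completed the 15 largest rises, with 1.13 and 1.00. Of these 15, 11 kept their call with each of the 8 libraries left out. Bdh2 and 2210408F21Rik lost it without control replicate 3, Slc16a12 without control replicates 1 or 3 or depleted replicate 3, and Gm48941 without any library except depleted LPS replicate 3. With the set block the calls of Slc16a12 and 2210408F21Rik (limma adjusted p = 0.058 for both) and of Gm48941 (0.139) were lost.

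**Figure D2:**
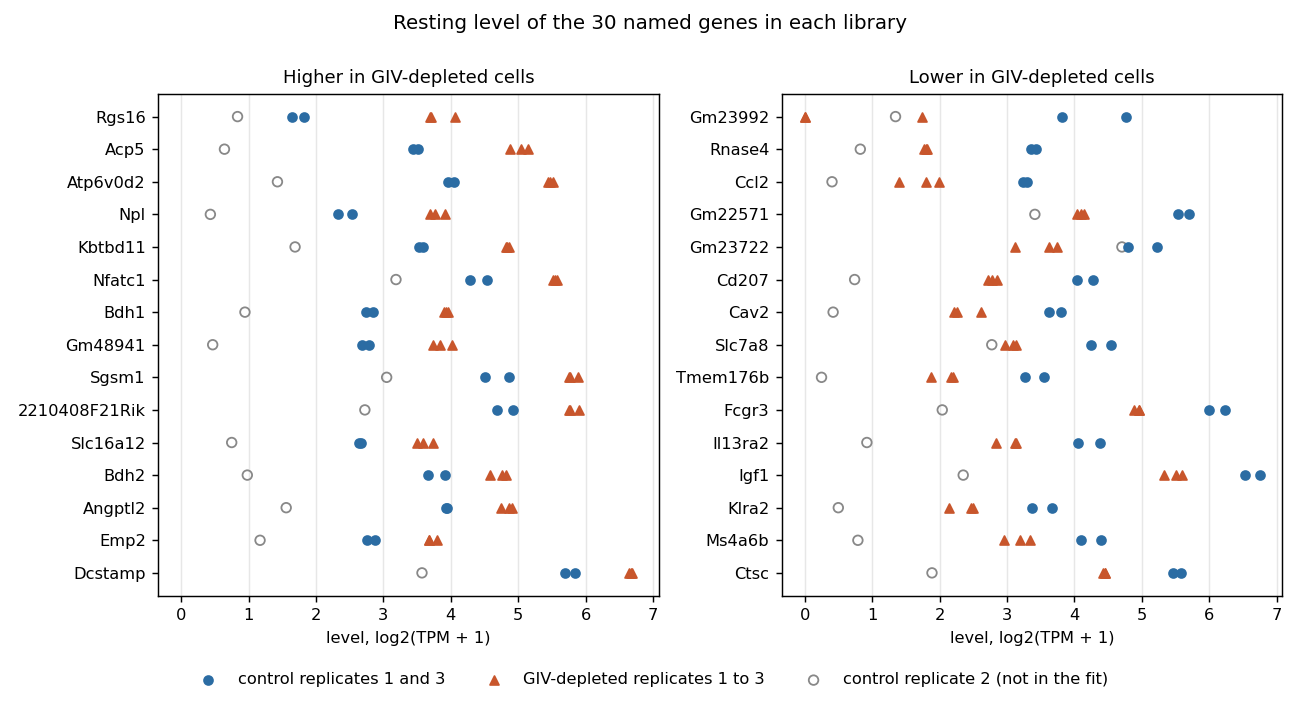
Level (log2(TPM + 1)) of the 15 genes with the largest called rises (left) and the 15 with the largest called falls (right), 1 point per resting library. Filled circles are control replicates 1 and 3, triangles the 3 depleted replicates and open circles control replicate 2, which was not in the fit. The filled circles and triangles do not overlap in any row because the genes were chosen that way. The open circles lie far left of the filled ones in most rows.

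Other rises, outside the 15, included immune surface molecules, survival genes and a cyclin. Itgax, the CD11c integrin subunit of dendritic cells and macrophages, was at 8.86 and 9.71 TPM against 18.3, 17.6 and 16.9 TPM and rose by 0.85, the only integrin of 12 tested to do so. Cd40, a costimulatory receptor, rose by 0.75 and Vsir, the inhibitory checkpoint VISTA, by 0.71, and both calls were lost in 7 of the 8 leave-outs. Ccnd2, cyclin D2, was nearly silent in the controls, at 0.116 and 0.138 TPM, and reached 1.06, 1.30 and 1.51 TPM in the depleted cells. The control with LPS was at 0.928 TPM. No fitted control reached the filter's log2 level of 1, so Ccnd2 was tested only through depleted libraries. Its log2 rise of 1.02 understates the 10.2-fold ratio of the means because of the added 1. The call was lost without control replicate 1 or control replicate 3. Bcl2a1b and Bcl2a1d, near-identical antiapoptotic paralogs whose reads can be split between copies, were counted at rises of 0.58 and 0.59, the second lost without control replicate 3. Asns, asparagine synthetase, was the only called gene among 35 tested of the unfolded protein and integrated stress response, at 0.38, and its call was lost in all 8 leave-outs. Ank, a transporter of pyrophosphate known for its part in mineralization, rose by 0.78, from 172 and 201 TPM to 333, 311 and 317 TPM. The AP-1 list also held Ier3, an immediate early gene, which rose by 0.60. Zfp36l1, an mRNA decay factor counted among the feedback inhibitors of inflammation, rose by 0.77, and both calls were lost in at least 6 of the 8 leave-outs. The calls of Itgax and Bcl2a1d were kept with the set block. Those of Cd40, Vsir, Ccnd2, Bcl2a1b, Asns, Ank, Ier3 and Zfp36l1 were lost (limma adjusted p = 0.101, 0.0568, 0.0731, 0.0524, 0.189, 0.058, 0.0502 and 0.136).

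On the other side, secreted ribonucleases and lysozymes were lower in 3 of 7 tested cases and higher in 0, with a median of -0.26. Rnase4, a secreted ribonuclease, showed the largest fall of a coding gene. It was at 9.79 and 9.27 TPM in the controls and at 2.47, 2.42 and 2.50 TPM in the depleted cells, 0.259 times the control mean, and fell by 1.60 on the log2 scale (SE 0.13, limma adjusted p = 0.00291). Ang, angiogenin, was at 3.08 and 3.99 TPM against 0.650, 0.772 and 0.809 TPM and fell by 1.37. The call of Rnase4 was kept with each of the 8 libraries left out. Ang reached the filter's log2 level of 1 only in both fitted controls. Without control replicate 1 or control replicate 3 it was therefore not tested, and its call was lost. The call of Ang as lower is thus not independent of the filter. Under the set block Rnase4 and Lyz1 kept their call and Ang lost it (limma adjusted p = 0.0656). These genes overlap on chromosome 14 on the plus strand (Rnase4 at 51091077 to 51106151, Ang at 51091150 to 51102009), so reads of shared exons may be split between them and they are not separate observations. RefSeq gives them a common upstream window, chr14:51090827-51091076 (GRCm38.p6, plus strand), shown because it lies before the starts of both genes:
Rnase4 and Ang, 250 bases before the start: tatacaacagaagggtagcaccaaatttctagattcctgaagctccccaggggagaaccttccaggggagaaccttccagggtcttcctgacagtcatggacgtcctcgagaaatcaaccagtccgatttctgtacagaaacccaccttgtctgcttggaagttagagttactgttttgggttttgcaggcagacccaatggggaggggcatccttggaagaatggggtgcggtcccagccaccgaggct
Lyz1, a lysozyme, was among the most abundant transcripts, at 7179 and 6922 TPM in the controls and 4896, 4939 and 4819 TPM in the depleted cells, and fell by 0.53. Its near-identical paralog Lyz2 differed by -0.10 and was not called, and reads of the pair can be split between them.

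The chemokine and growth factor genes that fell were single members of their lists. Ccl2, the monocyte-attracting chemokine MCP-1 (chr11:82035571-82037453, plus strand), was at 8.77 and 8.43 TPM against 1.64, 2.48 and 2.98 TPM, 0.275 times the control mean. It fell by 1.53 on the log2 scale (SE 0.15, limma adjusted p = 0.00554). It was the only one of 15 tested chemokines to be called: Ccl7, its neighbour in the same gene cluster, differed by 0.03, Ccl3 by 0.14 and Ccl4 by -0.24. Igf1, insulin-like growth factor 1 (chr10:87858265-87937042, plus strand), was at 91.7 and 106 TPM against 39.3, 44.2 and 47.1 TPM and fell by 1.17 (limma adjusted p = 0.00453). It was 1 of 13 tested growth and vessel factors, and Vegfa and Tgfb1 differed by 0.37 and 0.07 without a call. Both falls kept their call with each of the 8 libraries left out.

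A minority of the receptors for antibody complexes and particles were lower. Of 14 tested Fc receptors and adaptors 4 were lower and 0 higher, against 0.729% and 0.489% of all genes tested. Fcgr3, the low-affinity activating IgG receptor (chr1:171051174-171064935, minus strand), was at 62.7 and 74.4 TPM against 30.05, 30.1 and 28.6 TPM, a fall of 1.18 (limma adjusted p = 0.00291). The 3 depleted libraries lay within 2 TPM of each other. Fcgr1, the high-affinity IgG receptor, fell by 0.73 and lost its call without control replicate 1. Pirb and Lilrb4a, inhibitory immunoglobulin-like receptors, fell by 0.58 and 0.44, and both calls were lost in most leave-outs. Fcgr2b, the inhibitory IgG receptor, differed by -0.27, and the shared chain genes Fcer1g and Tyrobp by -0.04 and 0.04, none of them called. The count of 4 lower was 2 to 4 over 4 scalings of the data. It was 2 with the set block, where Pirb and Lilrb4a lost their call (limma adjusted p = 0.139 and 0.185).

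Among 14 scavenger and efferocytosis receptors tested, with a list median of -0.23, Msr1 and Cd36 fell. Msr1, the class A scavenger receptor, was at 293 and 313 TPM against 169, 166 and 162 TPM and fell by 0.86, with a limma adjusted p of 0.00255. Cd36, the receptor for oxidised lipoproteins, was at 60.4 and 66.9 TPM against 35.6, 34.0 and 27.1 TPM and fell by 0.97. The call of Cd36 was lost without control replicate 1, control replicate 3 or depleted replicate 2, and that of Msr1 was not lost. Cd36 lost its call with the set block as well (limma adjusted p = 0.078), which left 1 of 14. Pros1, which bridges dying cells to their receptors, differed by -0.74 and Abca1 by -0.55, and neither was called. Cd68 differed by 0.07.

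Of 15 C-type lectins and Siglecs tested, 3 fell and 0 rose, against 0.729% lower and 0.489% higher over all genes tested. Cd207, langerin, a C-type lectin best known from Langerhans cells, was at 15.5 and 18.3 TPM against 5.58, 5.84 and 6.25 TPM and fell by 1.37 (limma adjusted p = 0.00261). Siglec1 and Cd33, sialic acid binding receptors, fell by 1.07 and 1.03. The call of Siglec1 was lost without control replicate 3 and that of Cd33 without control replicate 3 or depleted replicate 2. Clec7a, the beta-glucan receptor dectin-1, differed by 0.46 and was not called. The neighbouring genes Ms4a6b, Ms4a6c and Ms4a6d, tetraspan surface proteins of myeloid cells, fell by 1.08, 0.97 and 0.85, and the call of Ms4a6b was lost without control replicate 3. Ms4a6d was at 53.4 and 52.5 TPM against 31.8, 28.4 and 26.9 TPM. With the set block Ms4a6b lost its call (limma adjusted p = 0.0808) and the 3 lectin and Siglec genes kept theirs.

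Of 12 tested macrophage markers, 3 fell and 0 rose, against 0.729% lower and 0.489% higher over all genes tested. Adgre1, the gene of the F4/80 antigen, was at 60.5 and 73.1 TPM against 41.5, 43.6 and 39.6 TPM and fell by 0.67. Itgam, CD11b, was at 54.2 and 61.6 TPM against 37.2, 37.2 and 37.3 TPM and fell by 0.62. Fcgr1, given above, was the third. Csf1r, the receptor for the survival factor CSF-1, differed by -0.30, and Cd14, Ptprc, Laptm5 and Spi1 by -0.04, -0.02, 0.00 and 0.15, none of them called. The call of Adgre1 was lost without control replicate 3 or any of the depleted resting replicates, and that of Itgam was not lost in a leave-out. With the set block Adgre1 and Itgam lost their call (limma adjusted p = 0.078 and 0.056), so that 1 of the 12 markers, Fcgr1, was called.

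Among the macrophage lineage transcription factors given here, Maf differed by -0.02, Irf8 by -0.38, Mitf by 0.27 and Id3 by -0.62, none of them called. Rxra, a nuclear receptor that partners the LXR and PPAR proteins, fell by 1.02 from 4.57 and 4.83 TPM to 1.58, 1.76 and 2.10 TPM, and its call was lost in 7 of the 8 leave-outs and with the set block (limma adjusted p = 0.175).

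Sensors and chemoattractant receptors held a few called genes each. Tlr8 and Tlr13, endosomal receptors of the Toll-like family, fell by 1.32 and 0.87, and were the only called genes of 11 tested Toll-like receptors (other than Tlr4) and their chaperones. Tlr13 was at 25.9 and 25.8 TPM against 13.3, 13.7 and 14.1 TPM, and Tlr8 at 4.56 and 3.27 TPM against 1.13, 0.898 and 0.851 TPM. Tlr2 differed by -0.28 and Tlr7 by -0.06. Among 20 tested genes of TLR4 and its proximal signalling 0 were called. Tlr4 itself differed by -0.11, Myd88 by 0.17 and Irak2 by 0.46. C3ar1, the receptor for complement fragment C3a, was at 28.6 and 29.3 TPM against 14.3, 17.2 and 15.3 TPM and fell by 0.85. Cx3cr1, the fractalkine receptor, fell by 0.54 from 65.9 and 67.9 TPM to 45.8, 44.6 and 47.1 TPM. Ccr2, a receptor for Ccl2, differed by -0.30 without a call. The calls of Tlr13 and C3ar1 were not lost in any leave-out, that of Tlr8 was lost without control replicate 1, and that of Cx3cr1 without either control or depleted replicate 2. Tlr8 and Cx3cr1 lost their call with the set block (limma adjusted p = 0.0599 and 0.0796).

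Cathepsins and lysosomal enzymes had a median of -0.11, with 4 of 36 tested lower, 0 higher, and 12 lower at an unadjusted p under 0.05. Ctsc, the dipeptidyl peptidase that activates granule proteases, was at 43.0 and 46.7 TPM against 20.5, 20.9 and 20.8 TPM and fell by 1.08. Ctsl, an abundant endopeptidase, was at 417 and 487 TPM against 283, 282 and 286 TPM and fell by 0.67. Ppt1, a lysosomal thioesterase, and Ctss, which trims the invariant chain, fell by 0.39 and 0.35. Ctsb and Ctsd differed by -0.39 and -0.35 and were not called. The number called lower was 4 to 10 over 4 scalings of the data. The call of Ctsc was kept in every leave-out, that of Ctsl was lost without control replicate 3 or depleted replicate 2, and those of Ppt1 and Ctss were lost in most. With the set block 2 of the 36 were called, and Ppt1 and Ctss were not (limma adjusted p = 0.117 and 0.102).

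Of the other large falls, Slc7a8, a neutral amino acid transporter (chr14:54722209-54781946, minus strand), was at 18.1 and 22.2 TPM against 7.47, 7.81 and 6.84 TPM and fell by 1.33. Cav2, caveolin 2, fell by 1.35, Tmem176b, a tetraspan protein of antigen-presenting cells, by 1.32, Il13ra2, the decoy receptor for IL-13, by 1.18, and Klra2, a Ly49 family receptor, by 1.15. Of these 4, the call was lost for Tmem176b without control replicate 3, for Il13ra2 and Klra2 without control replicate 1, and for Cav2 without either control or depleted replicates 2 or 3. Fth1, the ferritin heavy chain that stores iron, fell by 0.47 from 4409 and 4974 TPM to 3198, 3376 and 3553 TPM, and was 1 of 15 tested iron genes to be called. Oasl2 was the only called gene of 40 interferon-stimulated genes, at -0.61, and the list median was -0.14. Plau, the urokinase plasminogen activator, fell by 0.49 and Tnfsf9, the 4-1BB ligand, by 0.45. Il10 fell by 0.56, but at 0.807 and 0.775 TPM against 0.154, 0.218 and 0.265 TPM it was barely detected. It passed the filter on low levels only through libraries with LPS. The calls of Fth1, Oasl2, Plau, Tnfsf9 and Il10 were each lost in at least 6 of the 8 leave-outs. Ptges, a prostaglandin E synthase, fell by 0.88 and Cd48, an adhesion receptor of leukocytes, by 0.63, both of them calls lost in at least 6 leave-outs. The set block ended the calls of Fth1, Plau, Tnfsf9, Il10, Ptges and Cd48 (limma adjusted p = 0.058, 0.135, 0.103, 0.153, 0.0866 and 0.0883).

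The 3 small RNA genes among the largest falls were less even. Gm23992, an annotated microRNA gene, was at 13.1 and 26.2 TPM in the controls, at 2.32 TPM in depleted replicate 1, and listed at 0 in depleted replicates 2 and 3. The snoRNA genes Gm22571 and Gm23722 fell by 1.53 and 1.52, and each of the 3 calls was lost in at least 6 of 8 leave-outs. Under the set block they were at limma adjusted p = 0.117, 0.0855 and 0.133. Another 9 called genes, all noncoding, were listed at 0 in all fitted libraries of one group, and no fold is given for them. Scarna8, Gm24313, Gm25636, Gm26254 and Mir6986 were listed at 0 in both fitted controls, and so needed depleted libraries to pass the filter. The genes n-R5s189, Mir7031, mt-Ta and Gm22709 were listed at 0 in all depleted resting libraries, and so needed control or LPS libraries to pass it. Mir7031, mt-Ta and Gm22709 showed no difference with LPS under the set block. Where the resting controls alone brought a gene past the filter, its call as lower is not independent of the filter.

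The promoters of the 30 genes were searched for 4 motifs on both strands, in RefSeq windows that run from 250 bases before to 50 bases after each start site. An entry was found for 10 of the 15 rises and 11 of the 15 falls. The motif TGANTCA, a looser form of the AP-1 site, was in 5 of the 11 falls and in 1 of the 10 rises. It was in 8.97% of all 27025 genes with a window (7.81% of 32851 windows). These windows are shown because they hold the motif, in capitals, with up to 40 bases on each side and none beyond the start site:
Cav2, chr6:17281053-17281139, plus strand: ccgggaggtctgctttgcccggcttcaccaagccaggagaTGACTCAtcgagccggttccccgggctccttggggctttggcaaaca
Cd207, chr6:83677858-83677904, minus strand: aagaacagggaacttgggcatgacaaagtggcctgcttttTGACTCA
Igf1, chr10:87861034-87861110, plus strand: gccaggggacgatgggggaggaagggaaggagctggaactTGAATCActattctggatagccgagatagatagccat
Il13ra2, chrX:147429339-147429425, minus strand: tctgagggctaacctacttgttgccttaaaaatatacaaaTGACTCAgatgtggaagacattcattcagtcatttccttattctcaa
Klra2, chr6:131247362-131247408, minus strand: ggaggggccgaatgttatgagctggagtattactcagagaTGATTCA
Sgsm1, chr5:113280660-113280746, minus strand: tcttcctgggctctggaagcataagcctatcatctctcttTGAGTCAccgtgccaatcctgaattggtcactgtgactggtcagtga
The first 5 belong to genes that fell and the last to a gene that rose. Igf1 and Klra2 match only the looser form, with A or T at the open base where the AP-1 site has C or G. The windows of Igf1 and Sgsm1 are at start sites inside the gene. A core of the interferon-stimulated response element was in none of the rises or falls (3.99% of genes with a window, 3.44% of windows). The E-box CACGTG was in 2 rises, Npl and Slc16a12, and 0 falls (8.09% of genes, 7.15% of windows). TCACNCCAC was in 1 fall, Ctsc (1.44% of genes, 1.24% of windows). A match says only that these letters stand in the window.

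Some called genes were neighbours. Within 200000 bases of each other lay 15 pairs of called genes, made of 26 genes, and 13 of the pairs moved in the same direction. How often tested genes in general lie this close or move together was not counted. The pairs are not separate, since the Ms4a6 genes and Mmp9 recur and some pairs overlap or are paralogs. Among them were the Ms4a6 genes, Bdh2 and Slc9b2, Npl and Rgs16, Lilr4b and Lilrb4a, Cd40 and Mmp9, and Rnase4 and Ang. Itgax and Itgam, which lie 11056 bases apart on chromosome 7, moved in opposite directions, higher for Itgax and lower for Itgam. Lilr4b and Lilrb4a are near-identical, and their separate values, -0.47 and -0.44, are uncertain for that reason. The call of Lilr4b was lost with the set block (limma adjusted p = 0.124).

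Many other lists held no called gene. None of the tested members was called among 22 PI3K and Akt genes, 19 of the cyclic AMP pathway, 46 of the actin cytoskeleton and its small GTPases, 16 NF-kB subunits and inhibitors, 14 inflammasome genes, 16 of MHC and antigen processing, 23 of cholesterol biosynthesis, 33 of glycolysis, 35 of oxidative phosphorylation, 25 of autophagy and 43 of the cell cycle and DNA replication. At an unadjusted p under 0.05 these lists had 0 to 4 members higher, with 4 in oxidative phosphorylation, and 0 to 6 lower, with 6 in the actin list. Rac1 and Rac2, small GTPase switches of cell migration and the oxidase, differed by -0.33 and 0.41, and Cdc42 by -0.16, none of them called. The circadian clock genes had the highest median of all lists, 0.19, with 0 of 13 called, and Dbp, the clock output with the largest difference, was at 0.65.

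Of 16 proinflammatory cytokine genes tested, 1 was higher and 1 lower. Ltb, lymphotoxin beta, was at 7.56 and 8.73 TPM in the controls and at 14.1, 12.6 and 12.7 TPM in the depleted cells, and rose by 0.63 (limma adjusted p = 0.0209). The groups did not overlap, but the call was lost without any 1 of the 5 resting libraries and with the set block (limma adjusted p = 0.121). Tnfsf9, given above, was the gene that fell. Tnf, Il1b and Il6 differed by 0.09, 0.18 and -0.03 and were not called.

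**Figure D3:**
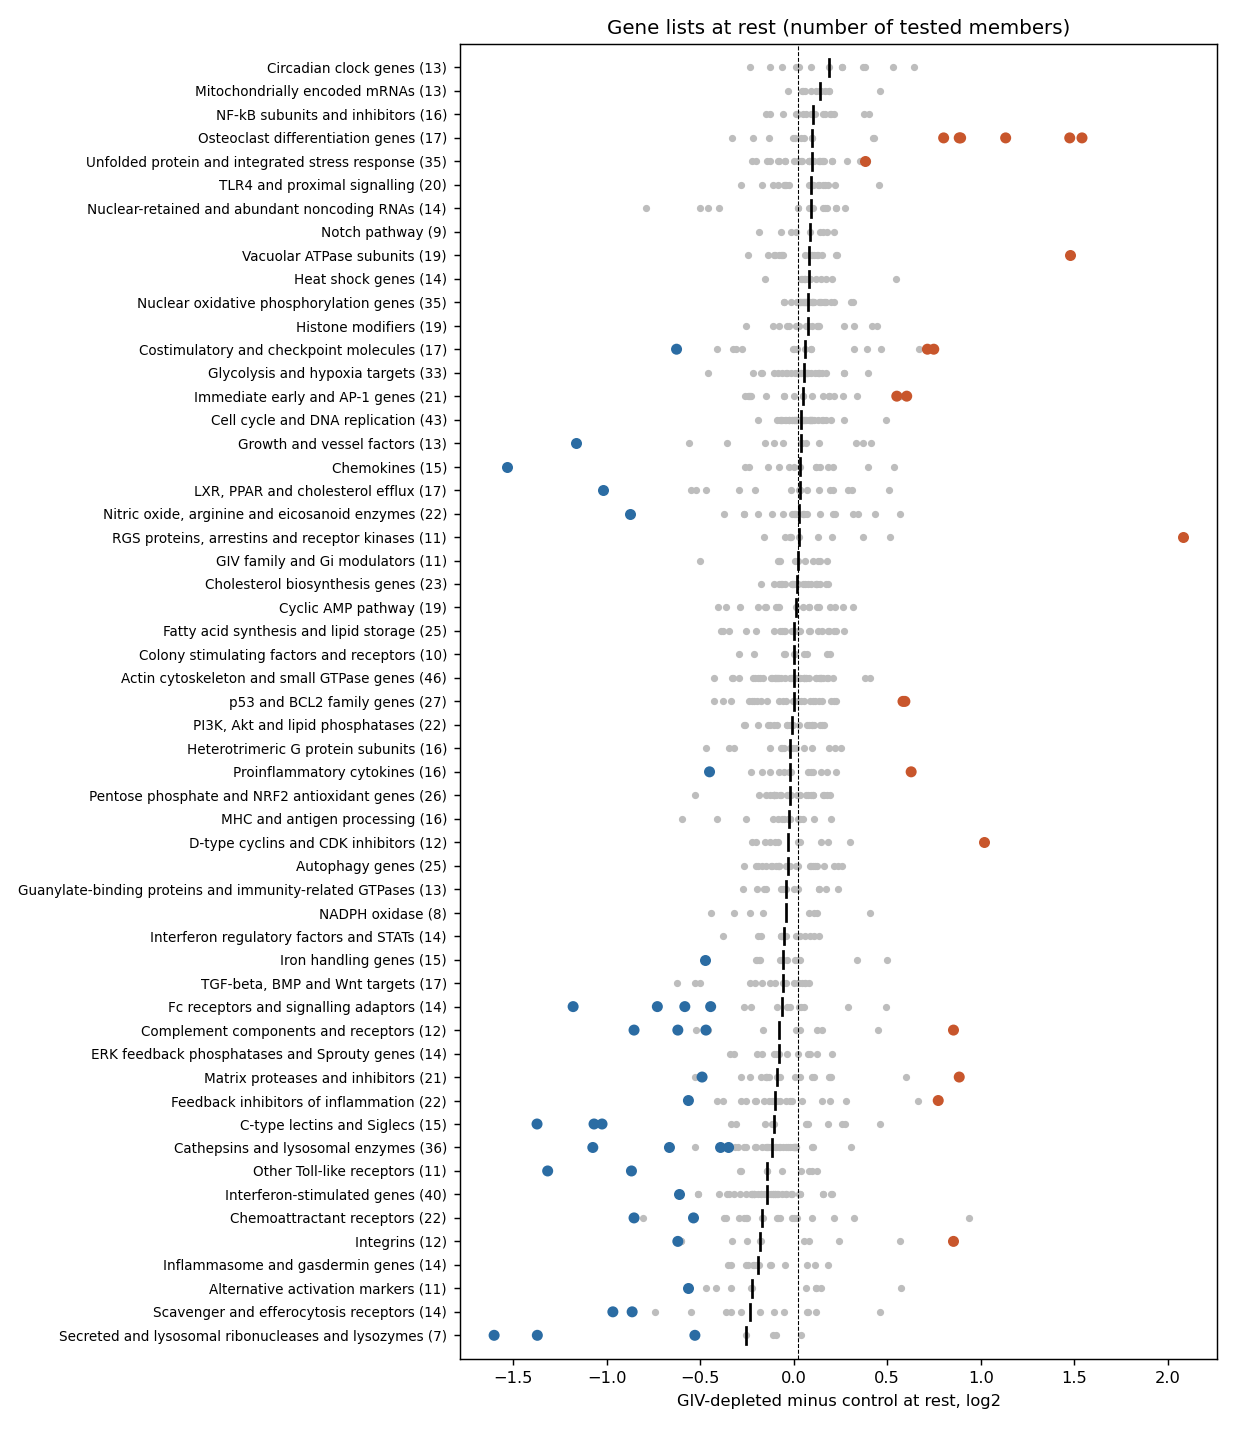
Each row is a gene list with its number of tested members, and each point is a member's log2 difference between depleted and control cells at rest. Orange and blue points are members called higher and lower, bars are list medians, and the dashed line is the median of all tested genes, 0.02. Osteoclast differentiation genes hold 6 orange points, while the Fc receptor and the cathepsin and lysosomal lists hold 4 blue points each among 14 and 36 members.

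The depletion difference was then set beside the same difference in LPS-treated cells, which shares no library with it. Both differences compare the same hairpins and come from the same fit, with a shared estimate of the spread. Calls in both states are therefore not independent. That side has 1 control library, assumed to vary like the other groups. Of 722 genes called there (5.27% of the genes tested, 0.89% higher and 4.38% lower), 77 were among the 167 called at rest, which is 46.1% of the resting calls and 10.7% of the LPS calls, and 0 were called in opposite directions. Of the 67 genes higher at rest 55 were also higher with LPS, and of the 100 lower 87 were also lower, against 50.3% of the same sign over all genes tested. The median over all genes with LPS was -0.12, and 0.01 after TMM scaling. After TMM scaling the same-sign counts were 59 and 82 and the genes called in both states 32 higher and 43 lower, against 23 and 54 without it. With the set number as a block, 83 genes were called with LPS, 22 higher and 61 lower, of which 18 were also called at rest in that fit, with 0 in opposite directions.

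Acp5, Rgs16 and Npl were higher in both states, by 1.54, 2.08 and 1.36 at rest and by 1.41, 1.60 and 1.75 with LPS. Rnase4, Ccl2, Igf1 and Slc7a8 were lower in both, by -1.60, -1.53, -1.17 and -1.33 at rest and by -1.05, -1.93, -1.44 and -1.40 with LPS. Of these 7 genes Rnase4 lost its call with LPS under the set block (limma adjusted p = 0.0745). Nfatc1 was called at rest alone, at 1.13 against 0.45 with LPS, but the difference of its effects was -0.68 and was not called.

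A direct test of the difference of the depletion effects called 31 of the genes tested (0.226%, with 0.0948% higher and 0.131% lower), 7 of which were called at rest. Atp6v0d2 was higher by 1.48 at rest and by 0.44 with LPS, a difference of -1.04 ± 0.11 (limma adjusted p = 0.0281). Itgax went from 0.85 to -0.31 and Fcgr3 from -1.18 to 0.04. Car2 and Ccnd2 were further apart with LPS, at 1.85 and 2.68 against 0.80 and 1.02, and so was Lhfpl2, a tetraspan-type membrane protein, at -1.94 against -0.54. The resting call of Lhfpl2 was lost with the set block (limma adjusted p = 0.067). Csf1r, not called at rest at -0.30, was at -1.32 with LPS, and the difference was called. These calls rest on single libraries and on the fit without the set block: the 31 became 0 with the block (1820 at an unadjusted p under 0.05), 0 without depleted LPS replicate 1 or 2, 9 without depleted LPS replicate 3, 11 without control replicate 1, and 10, 2 and 2 without depleted resting replicates 1, 2 and 3.

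**Figure D4:**
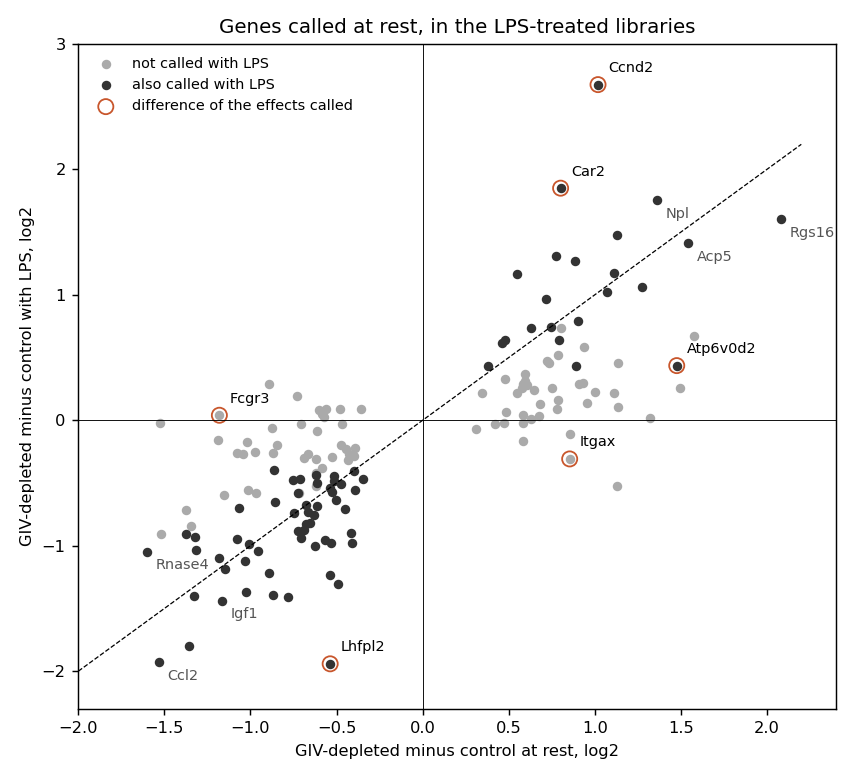
Log2 difference between depleted and control cells at rest (horizontal) and with LPS (vertical) for 157 of the 167 genes called at rest, dark where also called with LPS. The other 10 are left out, 9 of them listed at 0 in a group and Gm23992, which lies outside the axes. Orange rings mark genes whose difference of effects was called, among them Atp6v0d2 at 1.48 and 0.44, and the dashed line marks equal differences.

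Control replicate 2 was set beside these results as deposited and after a shift. As deposited, it held 0.786 TPM of Rgs16, 0.561 of Acp5, 1.69 of Atp6v0d2, 8.10 of Nfatc1 and 10.9 of Dcstamp, and 0.769 TPM of Rnase4, 0.323 of Ccl2, 3.11 of Fcgr3 and 4.10 of Igf1. These lie below every other resting library, for the genes that rose and for those that fell. Its abundant coding genes, those at a log2 level of at least 5, lay 3.06 log2 units below the other controls in the median, and its levels were raised by that offset. It then lay on the control side of the midpoint for 9 of 18 abundant genes called higher (50%) and 16 of 31 called lower (51.6%). Over all abundant genes with a difference of that sign these shares were 54.1% and 54.9%, so the shares among the called genes were not above those of genes in general. With this library in the fit 0 genes were called higher and 0 lower, with 305 and 103 at an unadjusted p under 0.05, and with TMM scaling as well 4 were called higher and 1 lower.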

How the data were processed

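The values are log2(TPM + 1) per gene, which the authors made with kallisto 0.45.0 on GRCm38, per the submitters' processing notes. The annotation release and the summing of transcripts to genes are not given in the sources used here. The deposited table holds 52143 genes in 10 libraries. Depth is unknown. Control cells with LPS replicate 3 is not analysed here. Positions are from GENCODE M21 (51336 genes matched), and promoters from RefSeq (GRCm38.p6).

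One limma model (3.58.1, R 4.3.3, mean-variance trend) of 4 groups and 9 libraries tested 13711 genes that reached a log2 level of 1 in 2 or more libraries, with 5 residual degrees of freedom and Benjamini-Hochberg adjustment at 0.05. A gene whose resting controls were below that level needed depleted libraries to be tested. Its call as higher is then not independent of the filter. The same holds for a call as lower where, as for Ang, only the resting controls reached that level. The fit was tested on simulated data with independent errors and no deviation shared within a set. That test therefore cannot show how the fit handles paired sets. Samples, genes and lists were chosen with earlier results of these data known. Named genes are Ccdc88a, the 15 largest called changes each way with a group mean of at least 3 in log2, groups that do not overlap and a unique symbol, and up to 3 called members of each list (or the 2 most abundant where none is called). Other genes were named after their values were seen. The alternatives tried were a block on set number, other filters, pseudocount, scalings, variance settings and library choices. The labels number the sets alike in each group but do not say what a set shares. Deviations from the group means of same-numbered depleted libraries at rest and with LPS correlated at 0.214, 0.353 and 0.232 across genes, each library best with its own number, and the differences between sets 1 and 3 in the resting groups at 0.146. By these correlations the sets were taken as pairs, which the main fit does not model. Blocked values therefore stand beside the calls that the block ends, and most other adjusted p-values are from the main fit. Motif searches and figures used Python 3.11.15. Some genes, among them 1 called at rest, are in the fit and the counts but are not reported here.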

Additional observations from a re-analysis of the deposited data

Results flagged for a closer look

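For 8 genes named here, the depletion difference itself differed between LPS-treated and resting cells by the test of that difference in limma. Each value is the log2 difference with LPS minus that at rest. It was negative for Atp6v0d2 (-1.04, adjusted p = 0.0281), Itgax (-1.16, adjusted p = 0.0269), Csf1r (-1.02, adjusted p = 0.0355) and Lhfpl2 (-1.40, adjusted p = 0.0281). It was positive for Car2 (1.05, adjusted p = 0.0499), Ccnd2 (1.66, adjusted p = 0.0352), Fcgr3 (1.22, adjusted p = 0.0405) and the small RNA gene Gm23992 (6.29, adjusted p = 0.0492). All 8 use the lone control library with LPS, and the count of such genes was 0 with the set number as a block and 0 without depleted LPS replicate 1 or 2.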

How the results depend on the processing

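Higher and lower calls at rest (67 and 100) stayed within 1.5 times under no filter, a stricter filter, a pseudocount of 0.1, removal of the GC trend and both variance settings. They were 114 and 120 with TMM scaling, 121 and 188 with quantile normalization, 103 and 174 after a rescaling that left out mitochondrial genes and the top 100, 21 and 26 with only the 5 resting libraries, and 38 and 53 with those after TMM scaling. Leaving out 1 library gave 30 to 52 higher and 27 to 66 lower. With the set number as a block they were 23 and 35, of which 20 and 31 were among the main calls. Of the 67 called named genes, 32 lost their call with the block. In all 20 alternatives with 9 or fewer libraries, 12 higher and 14 lower genes kept their call, and 0 of the 67 named genes that were called changed sign, against 33 of the 60 that were not called.

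The number of genes with a different depletion effect with and without LPS (31) was 0 with the block, 360 with no filter, 73 with a stricter filter, 87 with TMM scaling, 64 after rescaling, 155 with the GC trend removed and 54 with robust variances. It was 0 to 21 when 1 library was left out. The cause of these shifts was not tested.

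With all 10 libraries, control replicate 2 included, the counts were 0 higher, 0 lower and 0 for the difference, and with TMM scaling 4, 1 and 3. With it the median of all genes tested moved from 0.02 to 0.64 (0.20 with TMM scaling), and signs turned for 19 of the 67 called named genes and 22 of the 60 others. They turned for Ccdc88a, which was not called, to 0.22, and for the 19 called genes to these values: Adgre1 0.44, Cd36 0.23, Cd48 0.40, Ctsc 0.14, Ctsl 0.76, Cx3cr1 0.25, Fcgr1 0.12, Fcgr3 0.18, Fth1 0.99, Igf1 0.26, Itgam 0.25, Lyz1 1.10, Ms4a6b 0.073, Msr1 0.44, Oasl2 0.020, Pirb 0.21, Plau 0.36, Ppt1 0.59 and Tnfsf9 0.51, none of them called in that fit. With TMM scaling too, 19 of the 60 uncalled genes turned and 5 called ones: Cd48 was at 0.10, Ctsl 0.19, Fth1 0.40, Lyz1 0.51 and Ppt1 0.026. The 5 alternatives with TMM scaling of 10 or 5 libraries or without a depleted LPS library were chosen after seeing the data. Depth is unknown, so its limits on low transcripts cannot be given.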
